A study of Bos taurus with 30 samples.

Results

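Among the cows whose uterus was already inflamed at 7 DPP (days postpartum), some had clear vaginal mucus (vaginal mucus score, VMS, 0) and some had flecks of pus in it (VMS 1). The endometrium of the 6 cows with score 1 was compared with that of the 11 cows with score 0. Inflamed means that at least 18% of the cells counted on an endometrial smear at 7 DPP were polymorphonuclear neutrophils (PMN), and these 17 cows are part of the 27 cows of the study set and of the 30 libraries of the series. All were Holstein-Friesian cows of a single commercial dairy farm, brushed at 7 DPP, and no treatment is named in the sources used here. No measured gene value entered the choice of the groups. The labels name each cow by its state at 21 DPP. Score 1 held 2 cows labelled Healthy and 4 labelled Clinical, which developed purulent vaginal discharge (PVD), 2 of them with PVD only and 2 with PVD and cytological endometritis (CYTO). Score 0 held 3 Healthy cows, 4 Clinical cows (2 with PVD only and 2 with both) and 4 Sub-clinical cows, which developed CYTO. No score 1 cow developed CYTO alone, and all 10 cows of the study set with under 18% PMN had score 0, so the scores could be compared only among inflamed cows. Lactation number ran from 1 to 9 with a median of 4 in score 1 and from 1 to 10 with a median of 4 in score 0. The groups overlapped in their share of PMN, which was 36% to 74.5% with a median of 41.5% in score 1, and 31% to 87% with a median of 57% in score 0. The mucus score is a single reading by eye, and the smear came from another brush than the RNA.

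After calving, bacteria enter the uterus of most dairy cows, and neutrophils are the first blood cells to cross the endometrium into its lumen, where living and dead ones make up pus. They carry the calcium-binding S100 proteins of their cytosol and an NADPH oxidase that kills bacteria. The endometrium beneath is rebuilt in the same weeks: fibroblasts and smooth muscle lay down and cut collagen, and the lining responds to ovarian steroids through nuclear receptors. A cytobrush takes epithelium, fragments of stroma and the leukocytes on and in them together. In such a mixture fewer cells of a type and less RNA per cell cannot be told apart.

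Values are in CPM, the reads of a gene scaled to a common total of counted reads. The 17 libraries held 11922966 to 39202083 counted reads, with a mean of 18250322 ± 5058271 (SD, n = 6) in score 1 and 24075014 ± 7629351 (SD, n = 11) in score 0. This difference was not significant (exact two-sided permutation test over the 12376 divisions of 17 cows into 6 and 11, p = 0.115). The test does not show that the depths were alike. A single read was worth 0.0255 to 0.0839 CPM. The first principal component of all genes held 44.2% of the variance. Its mean differed between the scores (40.5 ± 58.9 in score 1 against -22.1 ± 25.2 in score 0, SD, exact two-sided permutation test, p = 0.00291). The groups overlapped on it, at -27.7 to 148.4 in score 1 and -50.1 to 22.6 in score 0. Without cow s1239 the score 1 mean was 18.9. The mean of the second component, which held 18.5%, did not differ by the same test (p = 0.596). Cow s1239 of score 1 stood apart: its first component score was 148.4 against at most 48.1 in the other score 1 cows, and its 20 most abundant genes took 24.0% of its reads against 11.2% to 17.4% in the other 16 cows. Fixed markers of neutrophils (4 of 6 present), macrophages, T and NK cells (3 of 4 present), epithelium, stroma, smooth muscle and endothelium, summed by cell type, were above 0 in every library. Those of B cells could be checked by JCHAIN alone, and those of ciliated cells and erythrocytes were not analysed here.

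Score 1 differed from score 0 in 1034 of 10441 genes tested, that is 9.90%. A gene counts as called where its adjusted p (Benjamini-Hochberg, limma) was below 0.05 and its change beyond 1 on the log2(CPM + 1) scale, a scale that understates the change of low genes. Of the calls, 110 genes were higher (1.05% of those tested) and 924 lower in score 1 (8.85%). The median of all genes lay at -0.34 rather than at 0. After TMM scaling, which sets each library so that most genes keep 1 level, this median was -0.01 and 200 genes were higher (1.92%) and 396 lower (3.79%), together 5.71%, and the lower genes made up 66.4% of the calls in place of 89.4%. Of the calls in CPM, 101 of the 110 higher and 396 of the 924 lower genes were also called after TMM scaling, so the excess of lower genes depends on the scaling. With the read counts recovered from CPM, edgeR called 731 higher and 340 lower genes, 31.7% of its calls being lower, and DESeq2 833 and 362, with 30.3% lower. The TMM factor of cow s1239 was 0.455, against 0.872 to 1.17 in the other 16 cows. Leaving out 1 cow at a time gave 48 to 353 higher and 572 to 1283 lower genes: 56 and 572 without cow s1239, 48 and 650 without cow s2161, and 353 and 1283 without cow s1831, while 70 were higher without cow s1829 and 70 without cow s2392. In what follows changes are on the log2(CPM + 1) scale, ± gives the standard error, and the value after TMM scaling is given where it ends the call.

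**Figure D1:**
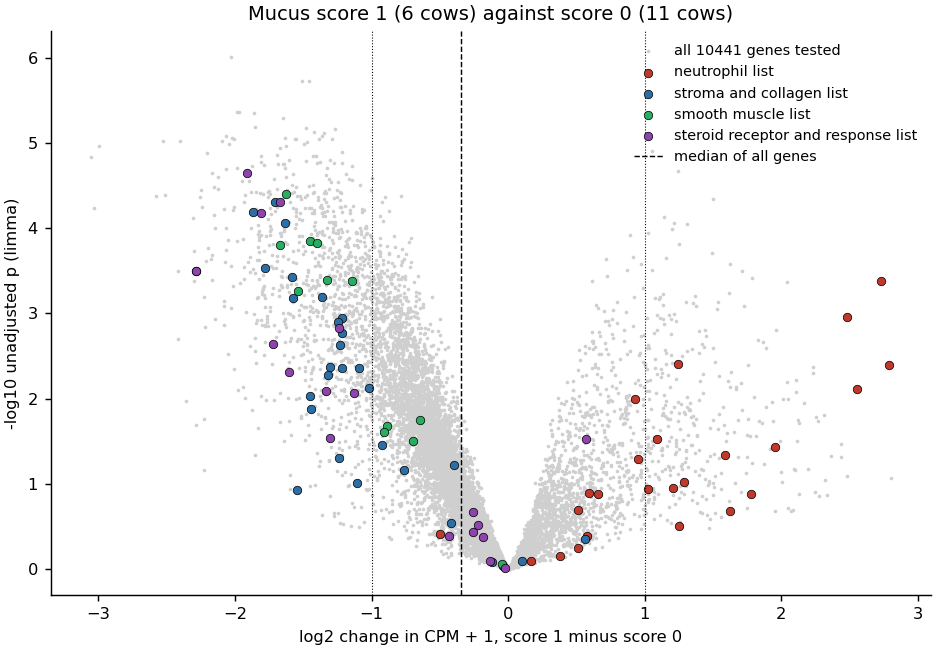
Each point is a gene, at its log2 change in CPM + 1 (score 1 minus score 0) and its -log10 unadjusted p from limma, with 4 gene lists in colour. The neutrophil list lies to the right, with 23 of 24 genes above 0, the lists of stroma, smooth muscle and steroid response lie to the left, the dashed median of all genes is at -0.34, and the dotted lines mark the fold threshold of 1 each way.

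The genes that rose with the lowest p included several that are known from white blood cells. PIK3CG, the catalytic subunit of the phosphoinositide 3-kinase that acts downstream of chemokine receptors in leukocytes, stood at 13.1, 16.8 and 27.9 CPM (lowest, median and highest cow) in score 1 and at 5.74, 8.39 and 10.6 CPM in score 0. Every score 1 cow was above every score 0 cow, and the change was 1.05 ± 0.18 (SE, adjusted p = 0.00375, 1.39 after TMM scaling). EVI2B, a surface protein of haematopoietic cells, stood at 36.4, 105 and 186 CPM against 18.02, 32.3 and 55.5 CPM, and rose by 1.499 ± 0.29 (adjusted p = 0.00388, 1.85 after TMM scaling). For this gene the groups overlapped only through cow s1831, the lowest of score 1. GMFG, a regulator of branched actin in leukocytes, rose by 1.25 ± 0.22 (adjusted p = 0.00379, 1.60 after TMM scaling), with a median of 136 CPM against 55.3 CPM. PIK3CG passed the p threshold but not the fold threshold without cow s1239 (0.93, adjusted p = 0.00933).

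The other higher genes of the same rank included VCAN, a large proteoglycan of the matrix that monocytes also make, which rose by 1.21 ± 0.25 (adjusted p = 0.00458), with a median of 108 CPM against 47.9 CPM. STK17A, a kinase linked to cell death, stood at 57.0 to 145 CPM against 23.3 to 53.6 CPM without overlap and rose by 1.03 ± 0.21. TNFAIP8, an inhibitor of apoptosis induced by TNF, rose by 1.15 ± 0.25, and DCK, the deoxycytidine kinase of nucleoside salvage, by 1.49 ± 0.32. TIPARP, a target of the aryl hydrocarbon receptor, rose by 1.25 ± 0.27, ATP8B4, a phospholipid flippase, by 1.31 ± 0.26, and ARL14EP by 1.14 ± 0.23. SKAP2, an adaptor of integrin signalling in myeloid cells, and C1GALT1, which builds the core of O-linked glycans, passed the p threshold but not the fold threshold, with changes of 0.91 and 0.72. Both were past it after TMM scaling, at 1.27 and 1.07. STK17A and TNFAIP8 were short of the fold threshold, at 0.83 without cow s1239 and 0.97 without cow s2161. Over all genes, the score 1 cows lay wholly above the score 0 cows in 6 genes (0.0575% of those tested) and wholly below in 102 (0.977%).

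**Figure D2:**
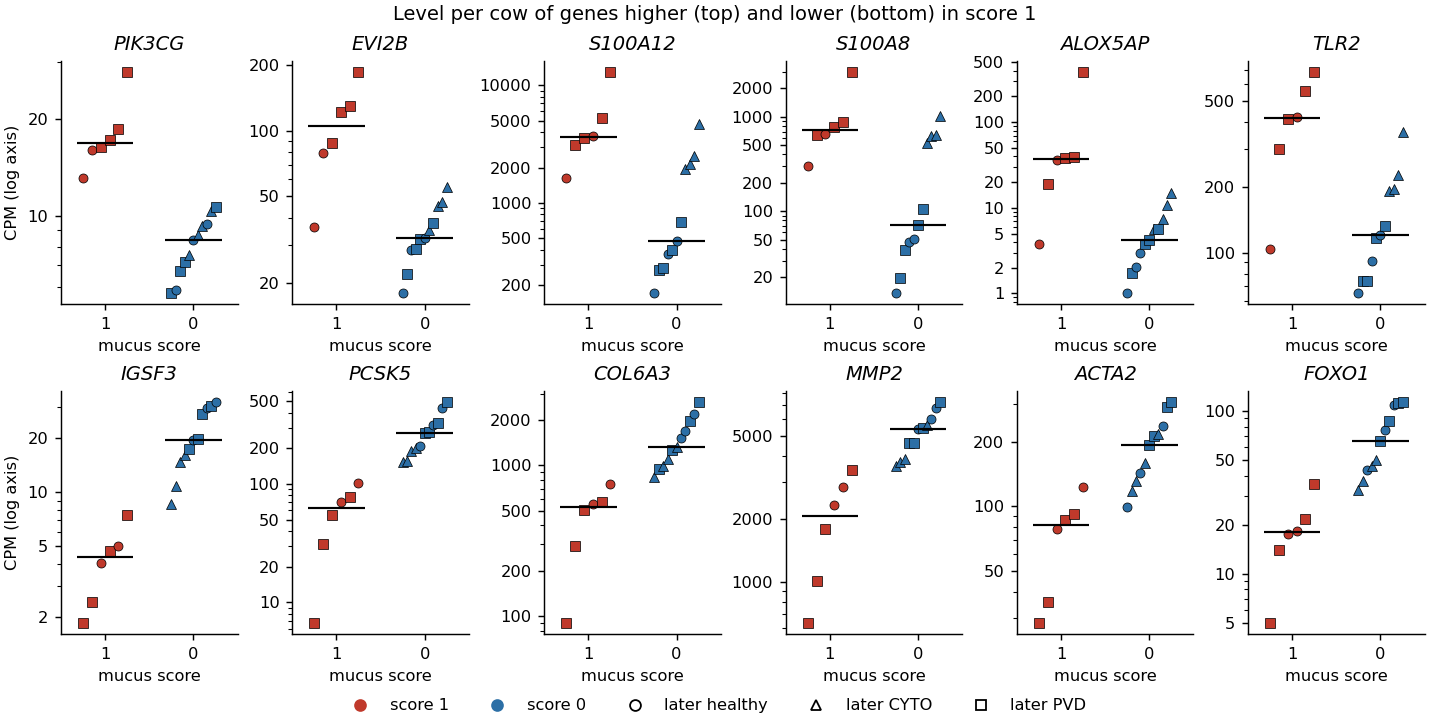
Level of 12 genes in each cow on log axes of CPM, score 1 (6 cows) beside score 0 (11 cows), with the later state as the marker shape and the group median as a bar. The 4 score 0 cows that developed CYTO lie within the range of score 1 for S100A12 and S100A8 and within that of the other score 0 cows for PIK3CG (7.53 to 10.3 CPM). They are at the low end of score 0 for PCSK5 (152 to 202 CPM, where the 7 others are at 210.2 to 496 CPM) and FOXO1 (32.6 to 49.9 CPM against 43.1 to 114 CPM).

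Neutrophil transcripts were higher in score 1, and this was uneven over the score 0 cows. Of the 39 genes of the neutrophil list (granule proteins, oxidase subunits and receptors) 24 were tested, and 23 of these had a higher level in score 1. Of the 24, 5 were called higher and none lower, beside 1.05% and 8.85% of all genes. Their median change was 1.15 against -0.34 for all genes (1.48 against -0.01 after TMM scaling). In edgeR 16 of the 24 were called higher, beside 731 of all 10441 genes tested. S100A12, which with S100A8 and S100A9 is among the most abundant proteins of the neutrophil cytosol, stood at 1633, 3638 and 12921 CPM in score 1 and at 172, 480 and 4682 CPM in score 0 (change 2.48 ± 0.65, adjusted p = 0.0131, 2.84 after TMM scaling). S100A8 stood at 298, 719 and 2979 CPM against 13.6, 71.7 and 1027 CPM, and rose by 2.78 ± 0.85 (adjusted p = 0.0275). In both genes the overlap came from the 4 score 0 cows that developed CYTO. Their S100A8 level was 524 to 1027 CPM, within the range of score 1, whereas the 7 other score 0 cows lay between 13.6 and 107 CPM, below every score 1 cow.

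S100A9 rose by 2.55 ± 0.86 (adjusted p = 0.0405, and 0.0555 after TMM scaling), with 163, 621 and 6809 CPM against 16.8, 102 and 633 CPM. ALOX5AP, the protein that hands arachidonic acid to 5-lipoxygenase at the first step of leukotriene synthesis, stood at 3.77, 37.1 and 385 CPM against 1.01, 4.26 and 14.9 CPM (2.73 ± 0.64, adjusted p = 0.00819). Apart from cow s1831, every score 1 cow was above all score 0 cows. ALOX5 itself, the lipoxygenase, fell by 1.01 on the log2 scale (adjusted p = 0.0125), and it lost its call after TMM scaling (-0.67, adjusted p = 0.0678) and, at changes down to -0.89, in 9 of the 17 comparisons without 1 cow. CSF3R, the receptor for the granulocyte growth factor G-CSF, was chosen after its values were seen and had a median of 50.9 CPM against 10.9 CPM with a wide spread (change 1.78, adjusted p = 0.241). S100A9 kept its call in 7 of the 17 comparisons that leave out 1 cow, with an adjusted p of 0.131 without cow s1239. S100A8 lost its call without cow s1239 (adjusted p = 0.0842) or s2161 (0.0579).

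A higher share of PMN on the smear did not always go with a higher level of the neutrophil list. Its mean level in log2(CPM + 1) was 4.70 to 8.74 in score 1 and 3.95 to 6.90 in score 0. The score 0 cows s1829 and s2622, with 86.5% and 79% PMN on the smear, had list means of 4.69 and 4.65, while the score 1 cows s2683 and s2520, with 39.5% and 37.5% PMN, had 7.32 and 6.27. Cow s1831 was the exception in score 1, at 4.70 with 36% PMN. Cow s1239 had both the highest PMN share of score 1 (74.5%) and the highest list mean (8.74). The 4 score 0 cows that developed CYTO had 6.18, 6.25, 6.66 and 6.90 at 53.5%, 57%, 76% and 87% PMN, and the 10 cows under 18% PMN lay at 2.45 to 4.57. With the PMN share as a covariate, S100A12 changed by 2.92 (adjusted p = 0.00483), S100A8 by 3.41 (adjusted p = 0.00754) and ALOX5AP by 3.39 (adjusted p = 0.00226), and over all genes 275 were called higher and 1260 lower, together 14.7%.

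Cows s1239 and s2683 had the highest means of this list in score 1 (8.74 and 7.32), so a smaller change without them follows from that choice. Without both, its median change was 0.33 and 2 of its genes were called higher and 2 lower. Over all 10441 genes tested, 86 were then called higher and 620 lower, together 6.76%. Without them S100A12 changed by 2.11 and missed the threshold (adjusted p = 0.074), as did S100A8 (2.28, adjusted p = 0.147), while ALOX5AP (1.83, adjusted p = 0.0428), PIK3CG (0.92, adjusted p = 0.00635) and EVI2B (1.15, adjusted p = 0.0194) passed the p threshold.

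**Figure D3:**
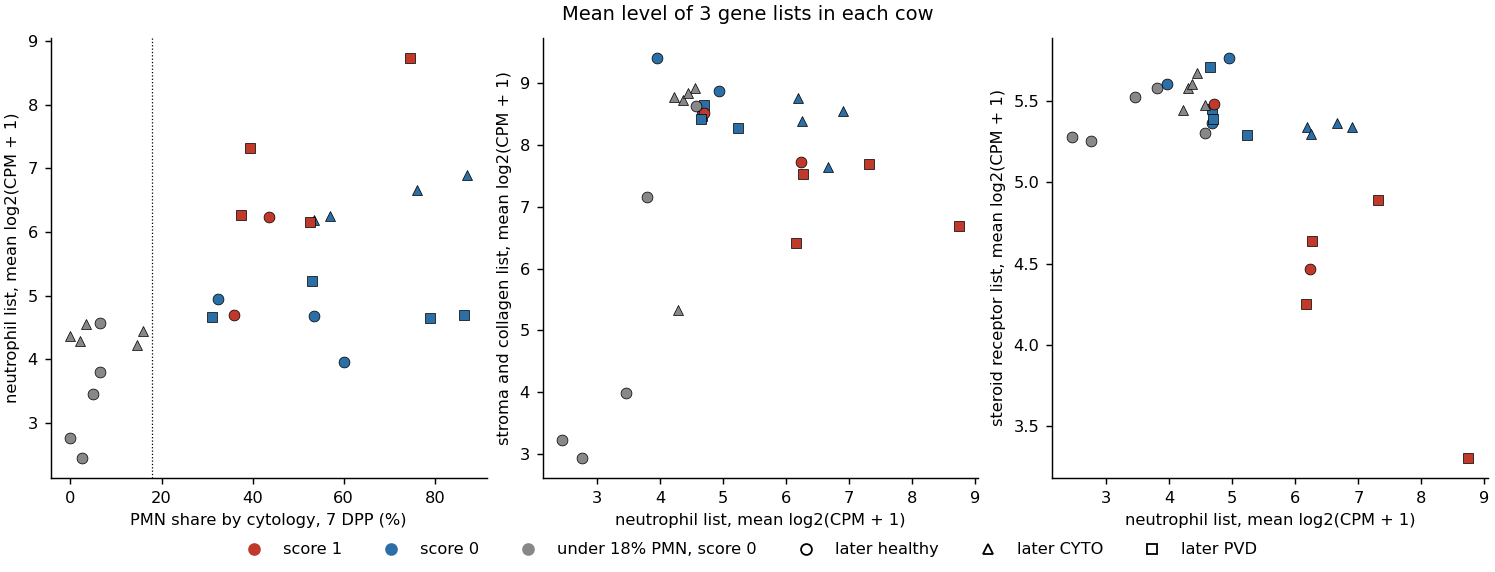
Mean log2(CPM + 1) of the neutrophil list against the PMN share by cytology, and of the stroma and the steroid receptor lists against the neutrophil list, in the 27 cows of the study set, with the dotted line at 18% PMN. Score 1 cows other than cow s1831 have neutrophil levels of 6.16 to 8.74 at PMN shares from 37.5% to 74.5%, and steroid list levels of 3.31 to 4.89 where all 11 score 0 cows are at 5.29 to 5.77.

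Interleukin 1 and chemokine transcripts had very wide ranges within both groups. IL1B, the main fever and alarm cytokine, was chosen after its values were seen and stood at 38.9, 584 and 19674 CPM in score 1 and at 7.00, 66.5 and 4056 CPM in score 0 (change 2.28, adjusted p = 0.251). IL-8, the chief neutrophil attractant, likewise stood at 146, 2827 and 26684 CPM against 22.9, 239 and 10379 CPM (change 2.32, adjusted p = 0.190). Cows s1239 and s2683 were highest among score 1 for both, and the 4 score 0 cows that developed CYTO held 1392 to 4056 CPM of IL1B against 7.00 to 255 CPM in the 7 others. Of the IL-1 list, 18 of 26 genes were tested and 1 was called higher, beside 1.05% of all genes. This was IL1RAP, the accessory chain of the interleukin 1 receptor, which stood at 24.1, 235 and 680 CPM against 10.8, 24.3 and 232 CPM (2.23 ± 0.70, adjusted p = 0.0310). Its call held in 11 of the 17 comparisons without 1 cow, with an adjusted p of 0.0975 without cow s1239. The median of the IL-1 list was 0.68 in all cows and -0.30 without cows s1239 and s2683. In edgeR 3 and in DESeq2 8 of its 18 tested genes were called higher, beside 731 and 833 of all 10441 genes tested.

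Of the chemokine list 17 of 35 genes were tested, with a median of 0.64, and 1 was called in each direction. Over all genes 1.05% were called higher and 8.85% lower, so the lower count is no larger a share. In edgeR 5 and in DESeq2 6 of the 17 were called higher, beside 731 and 833 of all 10441 genes tested. CCL2, which draws monocytes, rose by 2.05 ± 0.72 (adjusted p = 0.0483), with 33.4, 612 and 1204 CPM against 12.9, 84.0 and 179 CPM. Of the score 1 cows, 4 were above all score 0 cows, and the remaining score 1 cows, s1831 and s2683, lay inside the score 0 range. CXCL14, a chemokine of resting epithelium and stroma, fell by 1.94 on the log2 scale (adjusted p = 0.0395) with 5 of 6 score 1 cows below all score 0 cows, cow s2683 being the highest of the 17. After TMM scaling its adjusted p was 0.080. CCL2 kept its call in 4 and CXCL14 in 8 of the 17 comparisons without 1 cow, with an adjusted p of up to 0.113 for CCL2 (without cow s2161) and 0.098 for CXCL14 (without cow s1239).

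Of the cytokine list 20 of 26 genes were tested, with a median of 0.81. In edgeR 9 and in DESeq2 12 of these were called higher, beside 731 and 833 of all 10441 genes tested. In CPM 1 was called higher, beside 1.05% of all genes. This was IL27, made by activated phagocytes, which rose by 1.16 ± 0.41 (adjusted p = 0.0496, and 0.0504 after TMM scaling). The growth factors AREG and HBEGF, ligands of the EGF receptor that lining cells release on injury, changed by 2.12 (adjusted p = 0.0667) and 0.86 (adjusted p = 0.0546). In the Toll-like receptor list, with 18 of 25 genes tested and a median of 0.08, the receptor for bacterial lipoproteins TLR2 rose by 1.44 ± 0.39 (adjusted p = 0.0159). It stood at 104, 418 and 681 CPM against 64.9, 121 and 361 CPM, and 4 of 6 score 1 cows were above all score 0 cows. IRAK1, the kinase beneath these receptors, fell by 1.28 on the log2 scale (adjusted p = 0.0085, and 0.0372 after TMM scaling, where its change of -0.93 was short of the fold threshold). Of the NF-kB list 22 of 25 genes were tested with a median of 0.43. In edgeR 7 and in DESeq2 10 of these were called higher, beside 731 and 833 of all genes. In CPM 1 was called higher, beside 1.05% of all genes. This was REL, a subunit of NF-kB (1.13 ± 0.30, adjusted p = 0.0135). CD55, which shields cells from complement, rose by 1.83 ± 0.51 (adjusted p = 0.0188), and the immediate early regulators EGR2 and ATF3 rose by 1.62 ± 0.54 and 1.08 ± 0.37. Without cow s1239 the adjusted p was 0.141 for IL27, 0.0605 for CD55, 0.112 for EGR2 and 0.124 for ATF3, and these calls held in 4, 16, 7 and 5 of the 17 comparisons without 1 cow. Without cow s2161 REL was short of the fold threshold at 0.93.

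Interferon-stimulated genes were mostly higher in score 1, and the number that passed the test depended on the method. Of the 36 genes of this list 28 were tested and 26 had a higher level, with a median of 0.83 (1.18 after TMM scaling). In edgeR 15 and in DESeq2 18 of the 28 were called higher, beside 731 and 833 of all 10441 genes tested. In CPM 2 of the 28 were called higher, beside 1.05% of all genes. XAF1, a pro-apoptotic interferon target, stood at 21.0, 53.8 and 107 CPM against 10.5, 22.5 and 51.2 CPM (1.12 ± 0.36, adjusted p = 0.0315). SAMD9, an antiviral restriction factor, rose by 1.54 ± 0.49 (adjusted p = 0.0327), with 72.5, 199 and 1048 CPM against 29.8, 66.7 and 238 CPM. XAF1 kept its call in 11 and SAMD9 in 9 of the 17 comparisons without 1 cow, with adjusted p of 0.0939 and 0.101 without cow s1239. Leaving out the 4 cows that developed CYTO, 13 of the 28 genes were called higher, beside 305 of all 10441 genes tested. None of the 14 tested genes of antigen presentation was called in CPM. B2M, the light chain of class I molecules, was nearest at 0.99 ± 0.30 (adjusted p = 0.0263). ERAP2, which trims peptides for them, was at 0.74 ± 0.20 (adjusted p = 0.0147). After TMM scaling both were called, at 1.35 and 1.10. Of the 14, 8 were called higher in edgeR and 8 in DESeq2, beside 731 and 833 of all 10441 genes tested.

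Few genes of the other leukocytes were called in CPM, where 1.05% of all genes were called higher and 8.85% lower. In edgeR 4 of 23 macrophage genes and 4 of 9 T and NK cell genes were called higher, and in DESeq2 6 and 5. Of all 10441 genes tested, edgeR called 731 higher and DESeq2 833. Of the macrophage list 23 of 26 genes were tested, with a median of -0.17 that turned to 0.19 after TMM scaling. Its 1 call was CTSS, a protease of antigen-presenting cells, which rose by 1.02 ± 0.32 (adjusted p = 0.0294), whereas the lysosomal protease CTSB and the lipid carrier APOE changed by -0.997 (adjusted p = 0.0550) and -1.52 (adjusted p = 0.0647). Of the 9 tested genes of T and NK cells, CD96, a receptor of these cells, was called (1.09 ± 0.34, adjusted p = 0.0315). The T cell receptor chains CD3E and CD3D, at 0.89 and 0.86, reached an adjusted p of 0.0135 and 0.0150 and changes of 1.22 and 1.17 after TMM scaling. KIT, the receptor for stem cell factor that mast cells carry, fell by 1.19 on the log2 scale (adjusted p = 0.0148, -0.89 after TMM scaling), with a median of 10.6 CPM against 24.5 CPM. Without cow s2161 the adjusted p was 0.0888 for CTSS and 0.0772 for CD96, whose calls held in 11 and 12 of the 17 comparisons without 1 cow, and without cow s1239 KIT was short of the fold threshold at -0.82.

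The connective tissue of the endometrium was the largest group of lower transcripts among the lists. Of the stroma and collagen list, 30 of 32 genes were tested, 28 had a lower level in score 1, and 18 were called lower and none higher, with a median change of -1.24 (-0.89 after TMM scaling, with 8 called lower). Over all genes the median was -0.34 and 8.85% were called lower in CPM, against -0.01 and 3.79% after TMM scaling. COL6A3, a chain of the beaded collagen VI that surrounds cells, stood at 90.0, 533 and 758 CPM in score 1 and at 833, 1329 and 2646 CPM in score 0. The groups did not overlap, and the gene fell by 1.87 on the log2 scale (SE 0.37, adjusted p = 0.0040, -1.51 after TMM scaling). FBLN1, a matrix glycoprotein, stood at 157, 520 and 700 CPM against 627, 1331 and 2679.7 CPM (change -1.71 ± 0.33, adjusted p = 0.00391). PDGFRB, the platelet-derived growth factor receptor of fibroblasts and pericytes, stood at 84.8, 284 and 534 CPM against 457, 814 and 1233 CPM (-1.63 ± 0.33, adjusted p = 0.00458). For both genes 5 of the 6 score 1 cows were below all score 0 cows. The 4 defining stroma markers COL1A1, COL1A2, COL3A1 and DCN summed to 1366 to 24779 CPM in score 1 and to 4791 to 37790 CPM in score 0. Each was above 0 in at least 1 cow. The 4 neutrophil markers CSF3R, S100A8, S100A9 and S100A12 summed to 2102 to 24606 CPM in score 1 and to 205 to 6626 CPM in score 0. The part of these shifts in the single genes was not tested.

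Of the 25 tested genes of the matrix remodelling list 8 were called lower and 1 higher, beside 8.85% and 1.05% of all genes, with a median of -0.56 (-0.20 after TMM scaling and 0.07 in edgeR). MMP2, the gelatinase of fibroblasts, was the most abundant of the lower ones and had no overlap: 636, 2057 and 3432 CPM against 3589, 5372 and 7267 CPM (-1.55 ± 0.30, adjusted p = 0.0040, -1.19 after TMM scaling). MMP11, also of stroma, fell by 1.79 on the log2 scale (adjusted p = 0.00791) and the versican-cutting ADAMTS9 by 1.61 (adjusted p = 0.00954). The higher gene was CD44, the receptor for hyaluronan, which leukocytes carry as well (1.39, adjusted p = 0.0487, chosen after its values were seen). Its call held in 5 of the 17 comparisons without 1 cow, with an adjusted p of 0.126 without cow s2161.

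Of the smooth muscle list all 12 tested genes had a lower level and 7 were called lower, beside 8.85% of all genes, with a median of -1.24 (-0.89 after TMM scaling, with 4 called lower, beside 3.79%). MYH11, the smooth muscle myosin heavy chain, stood at 2.70, 5.21 and 17.1 CPM against 10.2, 19.4 and 33.7 CPM (-1.63 ± 0.31, adjusted p = 0.00379). ACTA2, smooth muscle actin, stood at 28.6, 82.3 and 124 CPM against 99.7, 193 and 308 CPM (-1.45 ± 0.31, adjusted p = 0.00532). For each of these genes 5 of the 6 score 1 cows were below all score 0 cows. SMTN, which binds actin in contractile cells, fell by 1.40 on the log2 scale (adjusted p = 0.00543). In the endothelium list 2 of 14 tested genes were called lower, with a median of -0.55 (-0.22 after TMM scaling and 0.13 in edgeR), a count and a median near those of all genes (8.85% and -0.34). ROBO4, a guidance receptor of vessels, fell by 1.63 on the log2 scale without overlap (1.19 to 11.8 CPM against 12.7 to 24.7 CPM, adjusted p = 0.00379), and KDR, the main receptor for VEGF, by 1.12 (adjusted p = 0.0201, 0.0965 after TMM scaling and 0.0636 without cow s2161).

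Genes of the steroid receptors and of the uterine response to steroids were also mostly lower. Of 27 genes 18 were tested, 17 had a lower level and 9 were called lower and none higher, beside 8.85% and 1.05% of all genes, with a median of -1.18 (-0.90 after TMM scaling, with 5 called lower, beside 3.79%). FOXO1, a transcription factor of the progesterone response and of insulin signalling, stood at 4.98, 17.9 and 35.4 CPM in score 1 and at 32.6, 65.2 and 114 CPM in score 0. In score 1, 5 of the 6 cows were below all score 0 cows, and the change was -1.91 ± 0.34 (adjusted p = 0.00379, -1.58 after TMM scaling). IRS1, an adaptor of the insulin and IGF1 receptors that oestrogen raises, stood at 3.89, 13.6 and 21.8 CPM against 19.1, 35.2 and 62.3 CPM (-1.67 ± 0.32, adjusted p = 0.00391). HSD11B1, which regenerates active glucocorticoid, stood at 10.6, 15.0 and 30.8 CPM against 15.1, 69.9 and 117 CPM (-1.81 ± 0.36, adjusted p = 0.0040). Apart from cows s2392 and s2039, at 15.1 and 29.1 CPM, every score 0 cow was above every score 1 cow.

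The following 3 called genes of this list were chosen after their values were seen. The oestrogen receptor ESR1 stood at 7.12, 9.80 and 95.4 CPM against 20.8, 36.3 and 113 CPM and fell by 1.33 on the log2 scale (adjusted p = 0.0423, and 0.119 after TMM scaling). All score 1 cows but s1831 were below every score 0 cow, at 7.12 to 10.8 CPM, and cow s1831 was above 10 of the 11 score 0 cows. Its call held in 6 of the 17 comparisons without 1 cow, with an adjusted p of 0.104 without cow s1239. HAND2, a progesterone-induced factor of the stroma, stood at 0.866, 31.8 and 73.8 CPM against 53.7, 108 and 142 CPM and fell by 2.29 (adjusted p = 0.00746). NR2F2, a stromal nuclear receptor, fell by 1.24 (adjusted p = 0.0153, -0.89 after TMM scaling and -0.97 without cow s1239), and again cow s1831 was highest of score 1, at 120 CPM against at most 37.9 CPM in the other 5. HAND2 is also in the stroma list. IGFBP1, the IGF binding protein of the ruminant lining in pregnancy, stood at 1.90, 116 and 569 CPM against 27.9, 465 and 698 CPM (-2.36 ± 0.83, adjusted p = 0.0498, 0.0998 after TMM scaling and 0.149 without cow s1239), a call that held in 4 of the 17 comparisons without 1 cow.

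**Figure D4:**
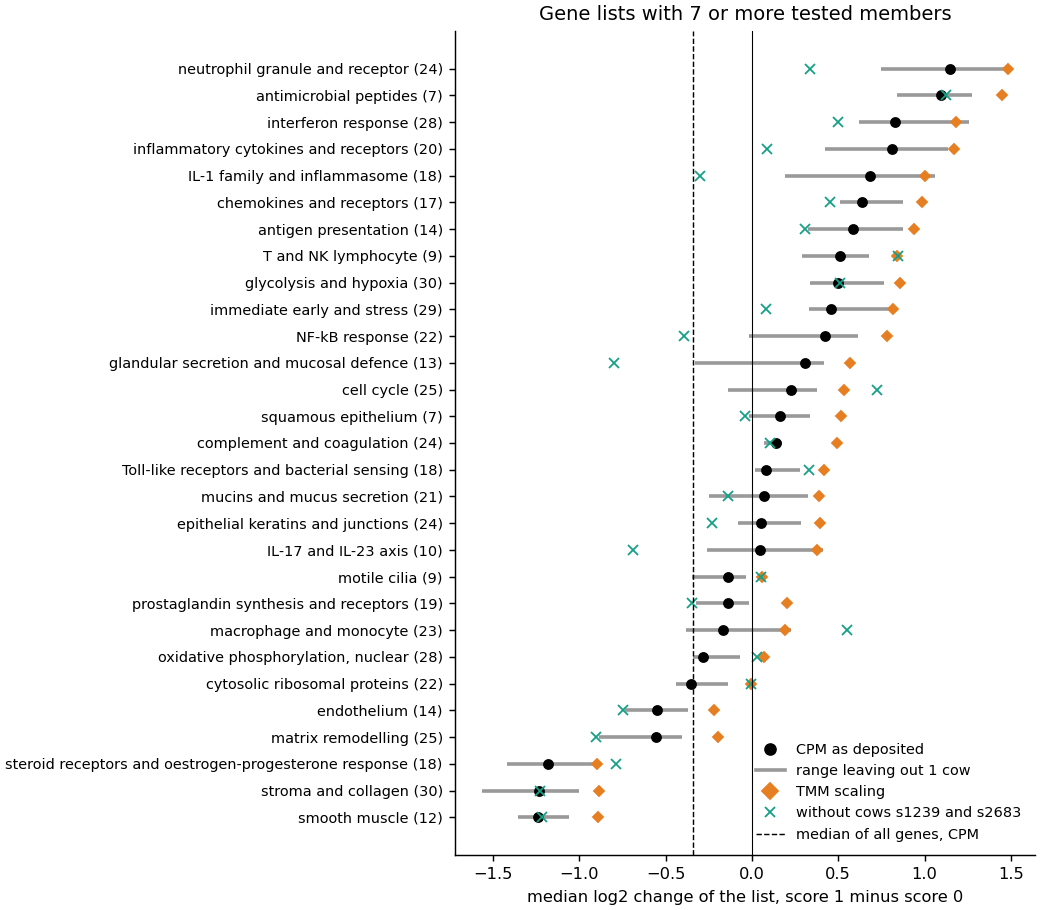
Median log2 change of each gene list with at least 7 tested members (number tested in brackets) in CPM, after TMM scaling, without cows s1239 and s2683 (the score 1 cows with the highest neutrophil list means), and as the range when each cow is left out in turn. The stroma, smooth muscle and steroid lists stay between -1.57 and -0.79 in each of these, while the neutrophil list goes from 1.48 down to 0.33 and the IL-1 list from 1.06 to -0.30.

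Outside the lists, the genes that fell with the lowest p included adhesion, matrix and signalling proteins. IGSF3, an immunoglobulin-domain membrane protein, had the lowest p of all: 1.86, 4.37 and 7.51 CPM against 8.62, 19.7 and 32.1 CPM without overlap (-2.03 ± 0.29, adjusted p = 0.00375, -1.73 after TMM scaling). PCSK5, a proprotein convertase that activates growth factors and integrins, stood at 6.71, 62.6 and 102 CPM against 152, 270 and 496 CPM, again without overlap (-2.53 ± 0.42, adjusted p = 0.00375). WISP1, a matricellular target of Wnt signalling, stood at 1.08, 9.30 and 21.6 CPM against 24.1, 41.7 and 81.8 CPM (-2.41 ± 0.40), and ITGA11, a collagen receptor of fibroblasts, fell by 2.04 on the log2 scale. TTR, a carrier of thyroid hormone, fell most among these genes, with 2.42, 7.52 and 38.8 CPM against 15.9, 84.8 and 196 CPM (-3.00 ± 0.51, adjusted p = 0.00375).

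ADGRL1, an adhesion receptor, fell by 1.46 on the log2 scale, SNED1, a matrix protein, by 1.51, the T-type calcium channel CACNA1H by 1.97, and the muscle kinase SPEG by 1.86. MAP1B, a microtubule protein, fell by 1.85, the ephrin EFNA4 by 1.48, BCL9, a coactivator of beta-catenin, by 1.27, and SH3PXD2A, a scaffold of invasive membrane protrusions, by 1.42. DAB2IP, a Ras GTPase activator, fell by 1.35, the axon guidance protein SEMA4C by 1.63, phospholipase C gamma PLCG1 by 1.49, and TNS2, a tensin of focal adhesions, by 1.39. FAM65C and MTSS1L fell by 1.99 and 1.65. After TMM scaling each of these named genes kept an adjusted p between 0.00786 and 0.00891, with BCL9 below the fold threshold at -0.92. Each also kept its call when any 1 cow was left out.

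Of the lists of epithelial junctions and of mucus secretion, 1 gene was called. The median of the 24 tested genes of epithelial keratins and junctions was 0.05 (0.40 after TMM scaling). Of these 1 was called lower, no larger a share than the 8.85% of all genes. This was TJP1, a scaffold of tight junctions, which fell by 1.43 on the log2 scale (adjusted p = 0.0123, and 0.032 after TMM scaling) with 5 of 6 score 1 cows below all score 0 cows. It was not called by edgeR (-0.91, adjusted p = 0.0781) or DESeq2 (adjusted p = 0.0505). None of the 21 tested genes of mucins and mucus secretion was called in CPM, after TMM scaling, by edgeR or by DESeq2, and their median was 0.07 (0.39 after TMM scaling). The mucins were named after their values were seen: MUC1, MUC13 and MUC5B had medians of 89.7, 310 and 22.4 CPM in score 1 and of 64.3, 92.6 and 27.2 CPM in score 0. CREB3L1, a regulator of secretory capacity in this list, passed the p threshold with a change of -0.81 ± 0.21 (adjusted p = 0.0121, and 0.180 after TMM scaling). In the squamous list the cross-linking enzyme TGM1 rose by 1.80 ± 0.63 (adjusted p = 0.0469, 0.0574 after TMM scaling and 0.147 without cow s1239), and its call held in 5 of the 17 comparisons without 1 cow.

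Of the smaller processes, PTGES2, a prostaglandin E synthase, fell by 1.10 on the log2 scale (adjusted p = 0.00893, and 0.0486 after TMM scaling, where its change of -0.76 was short of the fold threshold), and the anticoagulant protein S gene PROS1 and the matricellular THBS1 by 1.52 and 1.06. THBS1 lost its call after TMM scaling (adjusted p = 0.0958) and, at -0.87, without cow s2161. The platelet chemokine PPBP rose by 2.10 ± 0.68 (adjusted p = 0.0349, and 0.0914 without cow s2161). Of the 30 tested genes of glycolysis and hypoxia 24 had a higher level, with a median of 0.50. In edgeR 10 of the 30 were called higher and 0 lower, and in DESeq2 13 and 0. Of all 10441 genes tested, edgeR called 731 higher and DESeq2 833. In CPM 2 of the 30 were called lower, no larger a share than the 8.85% of all genes. These were ENO2, the neuronal enolase, at -1.07 and EPAS1, a hypoxia-inducible factor, at -1.21. Both lost their call after TMM scaling, ENO2 at -0.79 (adjusted p = 0.0374) by the fold threshold and EPAS1 at -0.85 (adjusted p = 0.185). Without cow s2161 PTGES2 was at -0.92, and ENO2 and EPAS1 had an adjusted p of 0.059 and 0.0896. The calls of PTGES2, ENO2, EPAS1 and THBS1 held in 15, 15, 14 and 14 of the 17 comparisons without 1 cow, and that of PPBP in 6. Over all genes 1.05% were called higher and 8.85% lower. By list, 2 of the 24 tested genes of complement and coagulation were called in each direction (median 0.14). Of the 19 of prostaglandin synthesis 1 was called higher and 2 lower in CPM (median -0.14). Of the 29 immediate early genes 2 were called higher in CPM (median 0.46), 16 in edgeR and 14 in DESeq2. The counts of lower genes in the complement and prostaglandin lists are near the share of all genes. The antimicrobial list held 7 tested genes with 3 called, which were the S100 genes given above, and the glandular list 13 with IGFBP1 alone called. In CPM no gene was called in the IL-17 list (10 tested, median 0.04) or the cilia list (9 tested, median -0.14). The IL-17 list had 1 gene called higher in edgeR and 2 in DESeq2, and the cilia list 1 in each. The lists of B cells and of placenta, with 2 tested genes and 1, had no call in CPM. No gene of the cell cycle, of oxidative phosphorylation or of the ribosome was called in CPM. The medians of the latter 2 lists, -0.28 and -0.35, were near that of all genes and became 0.07 and -0.00 after TMM scaling.

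The comparison was repeated within the later outcomes. Among the cows that developed PVD (4 with score 1 against 4 with score 0), 313 genes were higher and 815 lower, together 10.8%, and 94 of the 110 higher and 669 of the 924 lower genes of the whole comparison were among them. Those 8 cows are part of the 17, so this is not independent evidence. In these cows S100A8 changed by 4.41 (adjusted p = 0.00675), IL1B by 5.25 (adjusted p = 0.0304), FOXO1 by -2.50 (adjusted p = 0.0181) and COL6A3 by -2.42 (adjusted p = 0.0256). Among the cows which remained healthy (2 against 3) limma called no gene, with 153 higher and 794 lower genes at an unadjusted p below 0.05. All 110 genes called higher and 920 of the 924 called lower in the whole comparison had the same sign in these 5 cows, which took part in it. Whether the score effect differed between later PVD and later healthy cows was tested as an interaction in 13 cows. No gene was called by limma (121 at an unadjusted p below 0.05) or by edgeR (276), which does not show that the effects are alike.

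For comparison, the 10 cows with under 18% PMN, all with score 0, had S100A8 at 9.37, 38.0 and 83.7 CPM, PIK3CG at 1.29, 4.77 and 11.3 CPM, COL6A3 at 4.31, 481 and 1663 CPM, MMP2 at 7.80, 1910.5 and 4792 CPM and FOXO1 at 7.54, 24.0 and 64.4 CPM (lowest, median and highest). For S100A8 the 7 inflamed score 0 cows that did not develop CYTO overlapped this range, and no score 1 cow did. For COL6A3 and MMP2 these low-PMN cows ran from below both inflamed groups up into the range of score 0. No difference was tested here.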

How the data were processed

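RNA of an endometrial cytobrush at 7 DPP was sequenced from 30 cows, 1 library each, so p-values measure the spread between cows. The authors prepared stranded mRNA libraries, sequenced single ends in pools (the pool of each library is not given in the sources used here), trimmed with BBDuk, aligned with STAR to UMD3.1, kept unique alignments and counted protein-coding Ensembl genes with featureCounts. They deposited CPM without a scaling factor. In the deposited CPM all 314280 values (100%) were whole multiples of 1 read within 0.01, so read counts were recovered. Some tables carry the authors' fold changes, ratios and p-values, which were not used.

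The mucus score, PMN share and lactation came from the study's table of animals, not from the labels, and 3 cows outside the study set were left out. Of 10476 genes listed, 9287 have a symbol, and 4 symbols of the lists were matched through older or newer names. No genome of this build was used, so no positions are given. A gene was tested if it reached 1 CPM in 5 or more of the 17 cows, on log2(CPM + 1) with a trended prior and no covariate (limma 3.58.1, R 4.3.3). The alternatives were a pseudocount of 0.1, no filter, TMM and median-of-ratios scaling, edgeR 4.0.16 quasi-likelihood and DESeq2 1.42.0 on the recovered reads, covariates (PMN, outcome, lactation), subsets of cows and each cow left out. The fits were tested on simulated data.

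Named genes are the 12 of lowest p in each direction with a mean of at least 5 CPM, the up to 3 of lowest p in each of 33 gene lists, and the 30 called genes of lowest p. Some genes that this rule names are not reported here, and others are named as chosen after their values were seen. The members and lists were chosen with earlier results of these data known.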

Additional observations from a re-analysis of the deposited data

Results flagged for a closer look

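In 22 of 101 values examined over the 6 score 1 cows, 1 cow lay so far from the others that the gap to its nearest neighbour exceeded Dixon's 95% critical value. Chance flags about 1 in 20 such groups where the values are normally distributed. The flagged values are CPM without a log, a scale on which high cows lie further out, so the count cannot be set against that share. The values are also not independent, since several come from the same cow. The 11 score 0 cows were too many for this test.

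Cow s1239 stood apart in 10 of them, each time as the highest. Among neutrophil genes it held 12921 CPM of S100A12 (next cow 5244 CPM), 2979 CPM of S100A8 (878.5), 6809 CPM of S100A9 (800.5), 385.1 CPM of ALOX5AP (39.8) and 1896 CPM of CSF3R (490.0). It also held 27.91 CPM of PIK3CG (18.6), 144.6 CPM of STK17A (73.7), 1014 CPM of the growth factor AREG (173.9), 1048 CPM of SAMD9 (204.7) and 56.39 CPM of TGM1 (16.8).

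Cow s1831, whose neutrophil list was the lowest of score 1, was the highest in 4 genes that were lower in the other score 1 cows: 95.45 CPM of the oestrogen receptor ESR1 (next cow 10.8 CPM), 119.5 CPM of NR2F2 (37.9), 46.38 CPM of ADAMTS9 (14.7) and 309.9 CPM of TJP1 (95.4). Cow s2683 was the highest for CXCL14 at 1082 CPM (213), IGFBP1 at 569.1 CPM (153.8) and EPAS1 at 431 CPM (148.2). Cow s2161 was the highest for DCK at 99.26 CPM (44.4), TNFAIP8 at 123.7 CPM (72.0) and C1GALT1 at 63.75 CPM (38.7). Cow s2520 held 69.85 CPM of CD3E (30.2) and cow s1570 held 38.84 CPM of TTR (13.4).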

How the results depend on the processing

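The direction of the called genes named in the text held in every alternative, and their calls depended on it. Of 76 such genes, 60 were also called after TMM scaling, 60 by edgeR, 56 by DESeq2, 75 with PMN as a covariate, 50 without cows s1239 and s2683, 66 among later Clinical cows and 0 among later Healthy cows, and 46 kept the call whichever cow was left out. The count of 110 genes higher in score 1 became 200 after TMM scaling, 224 after median-of-ratios scaling, 731 in edgeR, 833 in DESeq2, 275 with the PMN share and 352 with the outcome as a covariate, 305 without the Sub-clinical cows, 313 within the Clinical and 0 within the Healthy cows. Leaving out 1 cow gave 48 to 353. The count of 924 lower genes became 396, 366, 340 and 362 under the first 4 of these, 0 within the Healthy cows, and 572 to 1283 with 1 cow left out. The cause of these shifts was not tested. The median over all genes moved with the scaling, from -0.34 in CPM to -0.01 after TMM scaling, 0.02 after median-of-ratios scaling, 0.05 in edgeR and 0.08 in DESeq2, which gave no adjusted p for 115 genes. Without the filter there were 110 higher and 923 lower genes, with lactation as a covariate 105 and 909, and without cows s1239 and s2683 together 86 and 620, and a pseudocount of 0.1 left both counts within 1.5 times. No gene was called for the interaction of score and outcome under any of its alternatives. No paired analysis was possible because each cow has 1 score. With 6 score 1 cows, each with a single library, and 1 read worth up to 0.0839 CPM, genes near the 1 CPM minimum are the least precise.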
